A study of Rattus norvegicus with 24 samples.

Results

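The dual-specificity phosphatases that limit MAP kinases are represented here by 9 genes, Dusp1, Dusp2, Dusp4, Dusp5, Dusp6, Dusp7, Dusp9, Dusp10 and Dusp14. They were chosen by name, as probes whose platform gene symbol is one of these, which gave 9 of 22523 probes and 9 of 13337 gene symbols. RNA of rat cortex was measured on Illumina RatRef-12 beadchips in a stroke model, the permanent closure of the middle cerebral artery, in male Wistar rats of 250 to 300 g. Treatment rats at 24 h had the artery closed and an injection into a cerebral ventricle of 30 mM ZM447439, an Aurora kinase inhibitor, in 80% dimethyl sulfoxide (DMSO). Vehicle rats at 24 h had the artery closed and 80% DMSO, and sham rats at 24 h had the surgery without closure of the artery, and no injection is named for them. The same treatment, vehicle and sham groups were collected at 8 h, with 4 arrays in each of the 6 groups. The age of the rats is not given, and nothing in the labels ties an array to its own animal. The surgery is described on the left side and the tissue is labelled as right cortex, so the sampled cortex may be on the side of the closed artery or on the other.

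MAP kinases are switched on when a kinase above them phosphorylates a threonine and a tyrosine in their activation loop. Dual-specificity phosphatases remove both phosphates and so end the signal. Many of them are induced by the MAP kinase pathway itself, which makes them a negative feedback loop with a short lag, and in brain Dusp1 is known as an immediate early gene of neuronal activity and injury. The family differs in place and in target. Dusp1, Dusp2, Dusp4 and Dusp5 act in the nucleus, Dusp6, Dusp7 and Dusp9 act mainly in the cytoplasm and prefer ERK, Dusp10 acts mainly on JNK and p38, and Dusp14 is a small member without the kinase-docking domain of the others.

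The columns of a time point were a single profile. After each array was divided by its median, the largest departure of any probe from the common profile was 3.19e-07 log2 over the 12 arrays of 24 h and 3.39e-07 over the 12 arrays of 8 h. No phosphatase was therefore compared between treatment, vehicle and sham rats, and the values below compare 1 profile of 24 h with 1 profile of 8 h. These have no replicate error and no p-value, and a difference between them joins time after surgery with whatever arrays each profile was made from, a point on which the sources used here are silent. Array medians ranged from 76.8 to 115 at 24 h and from 65.3 to 90.1 at 8 h, and each of the 2 slides held 2 arrays of every group. A level below is a probe's intensity as a multiple of its array's median. Probes differ in how brightly they report, so levels of different probes are not set against each other. The exceptions are the search for genes with levels like those of Dusp1 and the sums of marker levels, which bright probes dominate.

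Dusp1 was the phosphatase with the largest difference and the only one past 1.5-fold. Its level was 18.3 in the 24 h profile, against 29.6 in the 8 h profile, a log2 difference of -0.69, or 1.61-fold lower at 24 h. Dusp6 had levels of 10.0 at 24 h and 12.1 at 8 h (log2 difference -0.28, 1.21-fold lower). Both of these probes were well above the array median in both profiles. The other 7 probes had levels of 0.809 to 1.39 at 24 h and 0.822 to 1.67 at 8 h, so they read at or near the level of a typical probe. Fewer cells that express a gene and less RNA per cell cannot be told apart in these bulk samples.

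In the intensities as deposited, Dusp1 ran from 1408 over a median of 1612 to 2107 on the 24 h arrays, and from 1932 over 2356 to 2664 on the 8 h arrays. The brightest 24 h arrays were vehicle arrays and overlapped the dimmest 8 h arrays, which were treatment arrays. Dusp6 ran from 768 over 880 to 1150 on the 24 h arrays and from 793 over 967 to 1094 on the 8 h arrays, and its single brightest value was a 24 h vehicle array. Within a time point the arrays kept the same order for both genes, since only the factor of the array moved. Divided by the array median, the 12 values of a time point coincided and the times no longer overlapped for either gene. With 1 profile per time point this holds for a very small difference too, such as that of Dusp4 (0.941 at 24 h and 0.943 at 8 h). It is therefore no measure of how well the times separate.

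**Figure D1:**
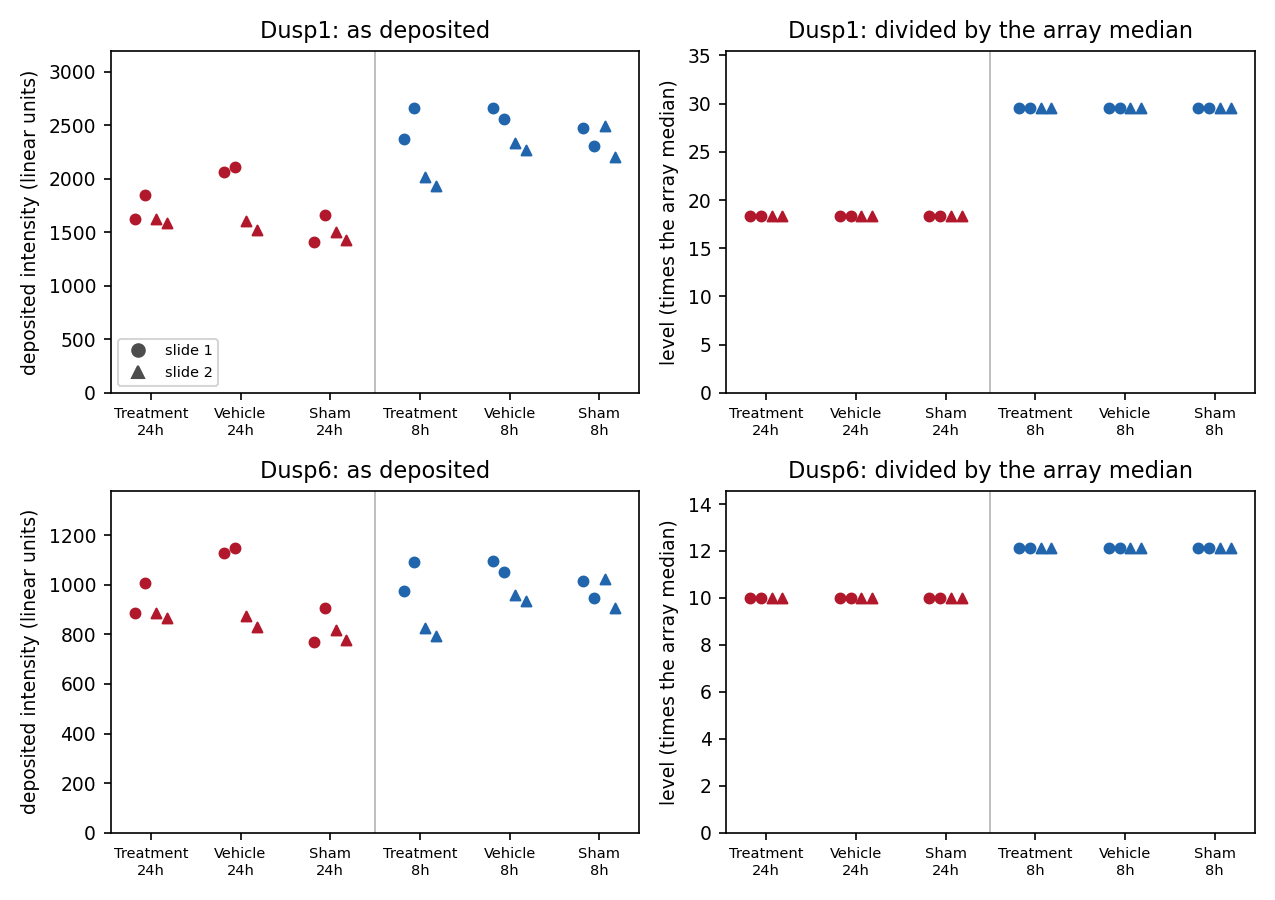
Dusp1 (top) and Dusp6 (bottom) on each of the 24 arrays, by group, with 24 h groups in red left of 8 h groups in blue, circles for slide 1 and triangles for slide 2. Left panels show the deposited intensity, where 24 h and 8 h arrays overlap, and right panels the multiple of the array median, where each time point has a single value (Dusp1 18.3 at 24 h and 29.6 at 8 h, Dusp6 10.0 and 12.1).

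**Figure D2:**
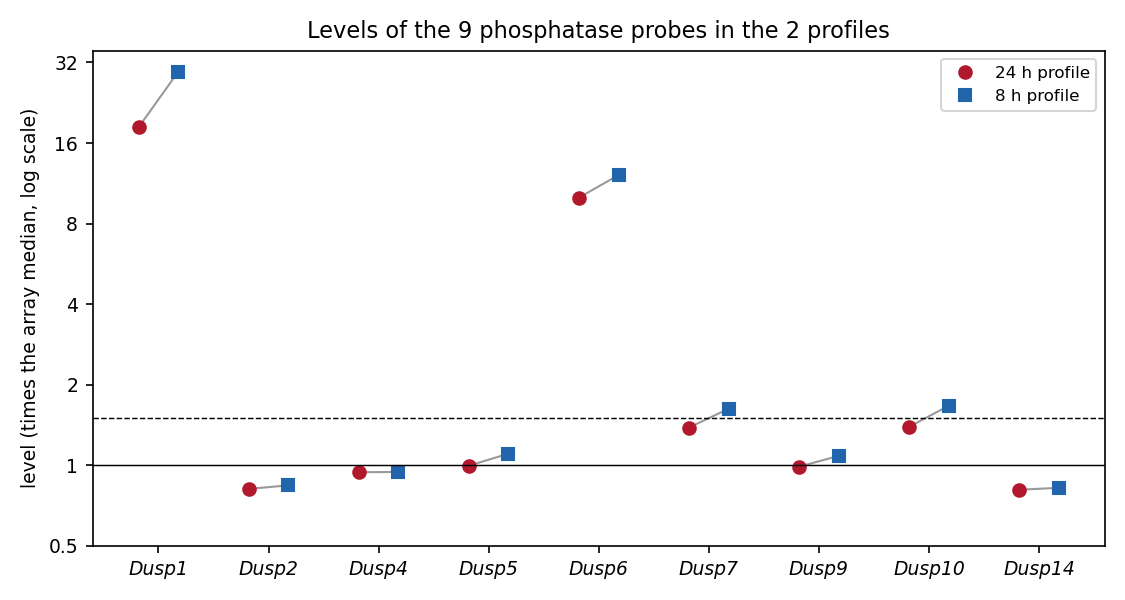
Level of each of the 9 phosphatase probes as a multiple of the array median, on a log scale, in the 24 h profile (circles) and the 8 h profile (squares). The solid line marks the array median and the dashed line 1.5 times the median, above which Dusp1 and Dusp6 lie in both profiles.

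Counts of the members were read against all probes. Of the 9 phosphatase probes, 1 was at least 1.5-fold lower at 24 h, against 0.497% of all probes (112 of 22523). None of the 9 was at least 1.5-fold higher, against 0.617% of all probes. Counted from a smaller difference of 0.32 log2, 1 of the 9 was lower and none higher, against 3.83% and 2.45% of all probes. All 9 log2 differences were below 0, against 53.1% of all probes, but those of Dusp2, Dusp4 and Dusp14 turned positive with scaling to the 75th percentile. The median difference of the 9 was -0.15, and that of all probes -0.01. Among the 7822 probes at or above 1.5 times the median in both profiles, of which Dusp1 and Dusp6 are members, 1.29% were at least 1.5-fold lower and 64.8% were lower by any amount. A share of 0.311% of all probes had a difference as low as that of Dusp1 or lower, which placed it at rank 70 from the lowest. For Dusp6 that share was 5.35%.

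The split of all probes past 1.5-fold depended on the scaling, and Dusp1 was counted as lower under each. With division by the median, 112 probes were lower and 139 higher. The split was 88 lower and 184 higher with the 75th percentile, 87 and 174 after quantile normalization, and 78 and 195 after cyclic loess. Over these scalings and the subtraction of the 1st percentile, Dusp1 was between 1.53-fold and 1.62-fold lower at 24 h.

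Dusp1 encodes the founding nuclear phosphatase of the family, which acts on p38, JNK and ERK and is induced by stress, growth factors and glucocorticoids. Its promoter is shown because the data turn on this gene, and beside it that of Dusp6, the other bright member, and that of Dusp5, the one window of the family with CArG boxes. Each window runs from 250 bases before to 50 bases after a transcription start, 5′ to 3′, in RefSeq's GRCr8 assembly. Capitals mark the cyclic AMP response element TGACGTCA, its shorter core TGACG (printed as CGTCA where it lies on the minus strand), and CArG boxes, the binding sequence of serum response factor. The windows lie at chr10:17184603-17184902 for Dusp1, chr1:262543524-262543823 for Dusp5 and chr7:35979354-35979653 for Dusp6, each on the plus strand.
Dusp1: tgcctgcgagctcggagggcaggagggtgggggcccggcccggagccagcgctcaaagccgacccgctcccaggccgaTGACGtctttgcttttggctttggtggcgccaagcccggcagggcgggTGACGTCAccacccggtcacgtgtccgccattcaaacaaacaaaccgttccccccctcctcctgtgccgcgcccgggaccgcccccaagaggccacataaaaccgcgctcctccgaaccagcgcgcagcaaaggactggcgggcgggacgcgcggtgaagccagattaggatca
Dusp5: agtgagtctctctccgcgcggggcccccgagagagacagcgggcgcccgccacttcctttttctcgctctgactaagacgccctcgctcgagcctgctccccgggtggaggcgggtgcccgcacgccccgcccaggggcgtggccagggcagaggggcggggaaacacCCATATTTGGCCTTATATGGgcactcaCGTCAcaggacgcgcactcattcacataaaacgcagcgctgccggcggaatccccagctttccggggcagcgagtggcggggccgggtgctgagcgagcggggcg
Dusp6: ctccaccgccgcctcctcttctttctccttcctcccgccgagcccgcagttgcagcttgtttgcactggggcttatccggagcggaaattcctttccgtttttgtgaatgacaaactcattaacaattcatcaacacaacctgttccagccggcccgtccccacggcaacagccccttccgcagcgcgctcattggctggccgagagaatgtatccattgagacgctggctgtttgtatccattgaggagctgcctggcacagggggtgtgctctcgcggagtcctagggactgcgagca

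Promoter windows were found for 8 of the 9 genes, Dusp4 being the other. The full element TGACGTCA lay at -124 to -117 from the start of Dusp1, where it holds the shorter core on each strand, and a further core lay at -172 to -168. No other phosphatase window held the full element, which was found in 1.83% of 33469 rat windows of this length, of which some genes have several. The core, in 21.2% of all windows, was also in 1 place each in the windows of Dusp2, Dusp5 and Dusp14. Dusp5 held 2 adjoining CArG boxes, at -82 to -73 and -72 to -63, and CArG boxes were in 1.64% of all windows. The window of Dusp6 held none of these, nor the AP-1 letters TGANTCA, found in 7.33% of all windows, 1 of the 3 Dusp14 windows among them. The GC box GGGCGG, found in 33.1% of all windows on either strand, was in the windows of 7 of the 8 genes, Dusp6 being the other. The glucocorticoid response element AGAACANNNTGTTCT was in none of the phosphatase windows and in 0.0149% of all windows. These are matches of letters in a short window and say nothing on whether a factor binds there.

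The other nuclear phosphatases were dim. Dusp2, known mainly from activated lymphocytes, had levels of 0.815 at 24 h and 0.840 at 8 h. Dusp4, a nuclear phosphatase of ERK and JNK, had levels of 0.941 at 24 h and 0.943 at 8 h. Dusp5, which binds and inactivates ERK in the nucleus, had levels of 0.995 at 24 h and 1.10 at 8 h, with a log2 difference of -0.15. These levels are close to the median of all probes, and the table used here carries no detection p-value, so whether the probes read above background was not tested. Subtracting the 1st percentile of each array stretched the difference of Dusp5 to -0.44 and that of Dusp2 to -0.31, and left Dusp4 at -0.02.

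Of the cytoplasmic, ERK-selective members, Dusp6 encodes the best-known feedback phosphatase of growth factor signalling through ERK. Its log2 difference of -0.28 ranged from -0.28 to -0.19 over the other scalings and stayed short of 1.5-fold under each. Dusp7, a close relative of Dusp6, had levels of 1.38 at 24 h and 1.62 at 8 h. Dusp9, known from placenta and development, had levels of 0.987 at 24 h and 1.08 at 8 h. The differences of Dusp7 and Dusp9 were -0.23 and -0.13, and became -0.43 and -0.41 once the 1st percentile was subtracted.

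Dusp10, which acts on the stress-activated kinases JNK and p38, had levels of 1.39 at 24 h and 1.67 at 8 h, a log2 difference of -0.26. Over the other scalings that difference ran from -0.47 to -0.21. Dusp14 had levels of 0.809 at 24 h and 0.822 at 8 h, a difference of -0.02, and moved between -0.18 and 0.03. Dusp1 was thus the single member past 1.5-fold under any of the 5 scalings.

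**Figure D3:**
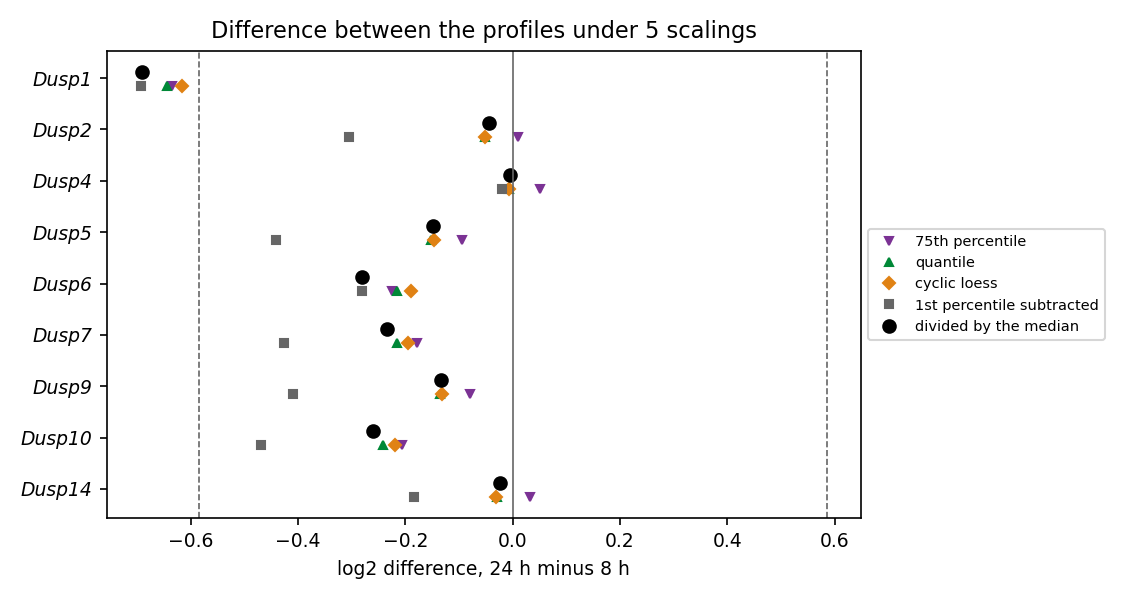
Log2 difference of each phosphatase, 24 h minus 8 h, with profiles divided by their median (black circles) and under 4 other scalings (coloured symbols). Dashed lines mark 1.5-fold. Dusp1 lies past the lower line under every scaling (-0.69 to -0.62), whereas Dusp2, Dusp4 and Dusp14 lie on both sides of 0.

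Phosphatases outside the 9 genes and the rest of the pathway were counted from 9 lists, with the brightest probe standing for a gene. Beside these counts, 53.1% of all probes were lower at 24 h by any amount and 0.497% by 1.5-fold, and among bright probes, those at or above 1.5 times the median in both profiles, these shares were 64.8% and 1.29%, with a median difference of -0.075. Of 14 measured other members of the dual-specificity family, 8 were lower and 6 higher at 24 h and none passed 1.5-fold in either direction (median -0.02, -0.05 to 0.04 over the other scalings). Dusp8, a neuronal phosphatase of JNK and p38, had levels of 5.11 at 24 h and 6.91 at 8 h, a log2 difference of -0.44. A second Dusp8 probe did not show this difference, with levels of 1.03 at 24 h and 1.04 at 8 h. These levels are near the array median, and whether that probe read above background was not tested. Dusp26 differed by -0.17. Of the 3 tyrosine phosphatases that dock on MAP kinases, 1 was lower and 2 higher at 24 h (median 0.05). Ptpn5, the striatum-enriched phosphatase of neurons, differed by -0.19 and Ptprr by 0.05, and the third gene, Ptpn7, had levels of 1.24 at 24 h and 1.04 at 8 h.

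The kinases themselves differed little. Of 10 measured MAP kinases, 8 were lower and 2 higher, with none past 1.5-fold and a median of -0.07 (-0.13 to -0.01 over the other scalings). The median of all probes was -0.01 and that of bright probes -0.075. Of the 10 kinases, 5 were bright, so the list median mixes bright and dim probes. Mapk9, which encodes a JNK, differed by -0.30, and Mapk6, which encodes the atypical kinase ERK3, by -0.27. Among 23 kinases and activators above them, 13 were lower and 10 higher, and 1 passed 1.5-fold (median -0.01, -0.04 to 0.04 over the other scalings). That gene was Rras, a small GTPase related to Ras and abundant in vessels, with levels of 5.99 at 24 h and 3.36 at 8 h (log2 difference 0.83). Map2k3 and Map2k6, whose kinases both activate p38, differed by -0.42 and 0.10. Of 10 kinases that MAP kinases activate, 7 were lower and none passed 1.5-fold (median -0.03, -0.16 to 0.03 over the other scalings), with Rps6ka4 at -0.28 and Mapkapk2 at -0.18.

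Inhibitors of receptor to ERK signalling other than the phosphatases, not all of them feedback inhibitors, were lower in 9 of 14 members. Of these, 1 was past 1.5-fold (list median -0.07, -0.15 to -0.01 over the other scalings). Of all probes 53.1% were lower, with a median of -0.01, and of bright probes 64.8%, with a median of -0.075. Of the 14 members, 7 were bright, so the list lies between these sets. The member past 1.5-fold was Errfi1, an induced inhibitor of the EGF receptor, with levels of 5.12 at 24 h and 8.51 at 8 h, a log2 difference of -0.73 beside the -0.69 of Dusp1. Sh2b3, an adaptor that restrains cytokine receptors, differed by -0.23. A list of transcription factor and early response genes tied to ERK and stress kinases was lower in 18 of 23 members. Not all of its genes are induced by these kinases. The shares lower were 53.1% of all probes and 64.8% of bright probes, and 15 of the 23 were bright. At least 1.5-fold lower were 5, against 0.497% of all probes and 1.29% of bright probes. None was higher by that much (list median -0.16, -0.20 to -0.08 over the other scalings). Fos had levels of 3.03 at 24 h and 6.03 at 8 h, and Egr4 of 2.54 at 24 h and 4.62 at 8 h.

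Growth factors and receptors above ERK were lower in 11 of 20 members, against 53.1% of all probes and 64.8% of bright probes. Of the 20, 9 were bright. The list median was -0.05 (-0.16 to 0.01 over the other scalings), and 1 gene was past 1.5-fold. The neurotrophin gene Bdnf was that gene, with levels of 2.51 at 24 h and 4.96 at 8 h, and the receptor gene Fgfr3 differed by -0.39. Scaffold genes were lower in 6 of 7 members, none past 1.5-fold (median -0.20, -0.31 to -0.15 over the other scalings), with the JNK scaffold genes Mapk8ip1 at -0.47 and Mapk8ip3 at -0.31. The medians of the lists of other dual-specificity phosphatases, of kinases and activators above the MAP kinases, of kinases they activate and of growth factors turned sign under at least 1 scaling, and those of the other 5 lists did not.

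**Figure D4:**
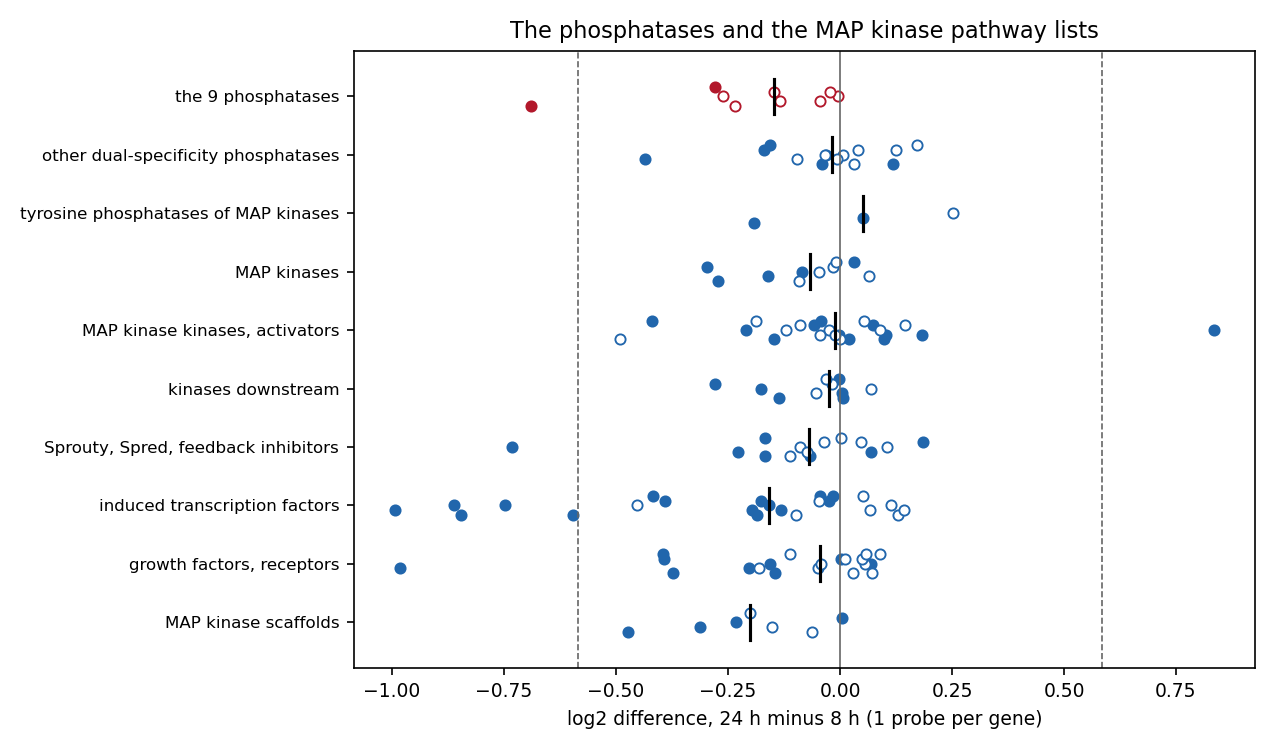
Log2 difference, 24 h minus 8 h, of the 9 phosphatases (red) and of the genes of 9 MAP kinase pathway lists (blue), 1 point per gene. Filled points lie at or above 1.5 times the array median in both profiles, short black lines are medians, and dashed lines mark 1.5-fold. The points furthest to the left are Fos and Bdnf (-0.99 and -0.98), and Dusp1 and Errfi1 lie past the left dashed line.

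The genes whose 2 levels lay closest to those of Dusp1 were sought among 13784 named probes, by the distance between their log2 levels in the 2 profiles. Sec14l1 was nearest (levels of 18.9 at 24 h and 29.4 at 8 h, distance 0.047), followed by Cabp1, a neuronal calcium-binding protein gene (18.6 at 24 h and 28.1 at 8 h, distance 0.075), and Cacng2, which encodes an auxiliary subunit of AMPA receptors (17.7 at 24 h and 31.3 at 8 h, distance 0.097). With 2 profiles, such a likeness rests on 2 values per gene. The distance also counts how brightly each probe reports, so it does not show that these genes behave as Dusp1 does.

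Markers of cell types and neighbouring regions were set beside each other in the same profiles. Of all probes 53.1% were lower at 24 h by any amount, and of bright probes 64.8%. The erythroid, astrocyte and lymphocyte counts below lie near these shares. Neuron markers were lower in 9 of 10 genes, with a summed level of 451 at 24 h and 496 at 8 h, and cortical projection neuron markers in 4 of 4 (23.2 at 24 h and 29.0 at 8 h). Slc17a7 is in both of these lists, so their counts are not separate observations. Oligodendrocyte markers were lower in 7 of 7 (249 at 24 h and 349 at 8 h), and erythroid markers in 3 of 5 (102 at 24 h and 137 at 8 h). Striatum markers were higher in 6 of 7 (120 at 24 h and 83.3 at 8 h), choroid plexus markers in 7 of 8 (38.7 at 24 h and 11.9 at 8 h), hypothalamus markers in 5 of 6 (20.9 at 24 h and 9.58 at 8 h) and microglia and macrophage markers in 7 of 8 (94.8 at 24 h and 53.7 at 8 h). Astrocyte markers were higher in 3 of 6 (553 at 24 h and 453 at 8 h), endothelial markers in 5 of 5 (42.5 at 24 h and 39.7 at 8 h), neutrophil markers in 4 of 6 (8.89 at 24 h and 9.98 at 8 h) and lymphocyte markers in 2 of 4 (3.69 at 24 h and 3.68 at 8 h). The neutrophil sum was lower at 24 h though 4 of its 6 genes were higher, with S100a8 at 2.46 at 24 h and 5.05 at 8 h. Gfap and Ttr made up much of their lists' sums. Without Gfap the other 5 astrocyte markers summed to 312 at 24 h and 329 at 8 h, the opposite direction, and without Ttr the other 7 choroid plexus markers summed to 8.58 at 24 h and 6.76 at 8 h. The medians of these lists kept their sign under the other scalings, except that of the lymphocyte list. The part of these shifts in the differences of Dusp1 and Dusp6 was not tested. All 4 measured projection neuron markers and all 7 measured striatum markers stood at or above 1.5 times the median in both profiles. Of the choroid plexus markers 1 of 8 did, and of the hypothalamus markers 3 of 6.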

How the data were processed

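Cortex RNA was measured on 24 Illumina RatRef-12 version 1 arrays. The values are linear intensities, 1 column per array, as deposited by the authors; their background correction and normalization are not given in the sources used here. A further 24 columns with running numbers matched no sample by name and were not used. Groups and replicate numbers came from the titles, since descriptions number the vehicle arrays differently. Each column was divided by its median, and log2 values were averaged over the 12 columns of a time point. The 24 h profile minus the 8 h profile was taken, as tested on simulated data. The simulated columns were a profile times 1 factor each, without noise, so this checks the arithmetic alone. Differences of at least 1.5-fold were counted as a size, with no test. Symbols came from the platform annotation (9 of 9 members had the same symbol in RefSeq). Genes listed under 1.5 times the median in either profile are given as levels, except the 9 members, whose differences are also given. Named were all members, up to 2 genes per pathway list (those furthest from 0 among probes at or above 1.5 times the median in both profiles), and the 3 nearest to Dusp1. Ptpn7, Map2k6, S100a8 and Slc17a7 were named after their values were seen. Members and lists were chosen with earlier results of these data known. Quantile normalization and cyclic loess used limma 3.58.1 in R 4.3.3. With 1 profile per time point, no precision can be given for a difference.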

Additional observations from a re-analysis of the deposited data

Results flagged for a closer look

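One array stood apart from its group in overall intensity. The median of the treatment array of replicate 2 at 24 h was 101, and its gap to the nearest of the other 3 arrays was 0.866 of the group's range, above Dixon's 95% critical value for 4 samples. Chance marks about 1 in 20 groups, and 6 groups were examined. Division by the median removes this factor, and the level of Dusp1 on this array was 18.3 times the median, as on the other 24 h arrays.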

How the results depend on the processing

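The 1 phosphatase probe lower by 1.5-fold and the 0 higher were so under every alternative run. The median difference of the members was -0.094 with scaling to the 75th percentile, -0.15 after quantile normalization, -0.15 after cyclic loess, -0.41 with the 1st percentile subtracted and a floor of 8, -0.25 with only probes above the median mean level (6 members), and -0.49 with only probes at or above 1.5 times the median (2 members). Over all probes, the subtraction gave 746 lower and 838 higher, and counting from a log2 difference of 0.32 gave 862 lower and 551 higher, against 112 and 139. From that size, 1 member was lower. Leaving out any 1 of the 24 arrays moved no result by more than the spread of the columns, which follows from the columns being 1 profile and is no sign of stability. No paired analysis was possible because the result comes from no test and the columns of a time point are 1 profile. No scaling moved the median of all probes by over 0.1. The dim signal of 7 of the 9 probes limits what can be said of them.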
